A study of Homo sapiens with 6 samples.

Results

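The cytosolic heat shock and co-chaperone genes described here are 38 named genes, chosen by family: the heat shock factors, the HSP70 and HSP110, HSP90, small heat shock, HSP60 and HSP10, DNAJ and BAG families, and co-chaperones of HSP90. They were found by gene name in an expression table of 58735 genes, where the 38 names take 39 rows because HSPA14 is listed under a pair of gene identifiers. The group name holds for most of them, but HSPA9, HSPD1, HSPE1 and DNAJA3 encode mitochondrial proteins and HSPA13 encodes a protein of the endoplasmic reticulum. The cells were A375, an established human melanoma line, given either the solvent DMSO or CuB, which the study's title names as cucurbitacin B, a triterpenoid made by plants of the cucumber family. Both groups were collected after 6 hours, and each has 3 libraries made from polyadenylated RNA with a TruSeq kit. The dose is uncertain: the protocol states 0.2 µM, while the names of the CuB libraries carry 100 nM. Only 1 cell line was used, and nothing states that the 3 libraries of a group came from separate cultures, so p-values measure the spread between these libraries, which may be technical.

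Chaperones of the HSP70 family bind unfolded stretches of other proteins and release them in cycles driven by ATP. J-domain proteins (the DNAJ family) bring clients to HSP70 and start ATP hydrolysis, while BAG proteins and HSP110 exchange the nucleotide. STIP1 hands clients on to HSP90, which finishes the folding of many kinases, transcription factors and steroid receptors. When unfolded protein builds up, the heat shock factor HSF1 forms trimers and binds heat shock elements in front of many of these genes, made of alternating GAA and TTC units with 2 bases between them.

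After CuB, members that rose included both cytosolic HSP90 genes, the HSP70 genes HSPA1A, HSPA8 and HSPA9, and DNAJB1. Of the 34 rows with a mean of at least 1 FPKM (fragments per kilobase of exon, scaled to library size, so a level per length), 16 rose (47.1%), 1 fell (2.9%) and 17 did not pass the test at an adjusted p under 0.05. Without DMSO replicate 1, 11 rose and 0 fell, while 2115 of all 13273 tested genes were higher and 1359 lower. With all libraries kept, the same test called 38.6% of all tested genes, 22.9% higher and 15.6% lower with CuB. The median change of the 34 rows was 0.35 on the scale of log2(FPKM + 1), on which all changes are given here where the change of a weakly expressed gene reads too small, against 0.05 over all tested genes. HSPA1A was the only member to rise at least 2-fold on that scale, followed by HSPA9, DNAJB1 and DNAJB2. The 3 CuB libraries all lay above the 3 DMSO libraries for 21 of the 34 rows (61.8%), where 29.8% of all tested genes did so, and all lay below for 2 rows (5.9%), where 21.7% did. Outside the mitochondria and the endoplasmic reticulum, 13 of 29 tested rows rose and 1 fell. Summed over all members the level went from 2369 ± 69.4 FPKM with DMSO to 3087 ± 16.9 FPKM with CuB (SD, n = 3 each), a ratio of 1.30. This ratio is on the deposited scale, on which the mean FPKM sum of all genes was also higher, at 261419 with CuB against 243326 with DMSO.

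**Figure D1:**
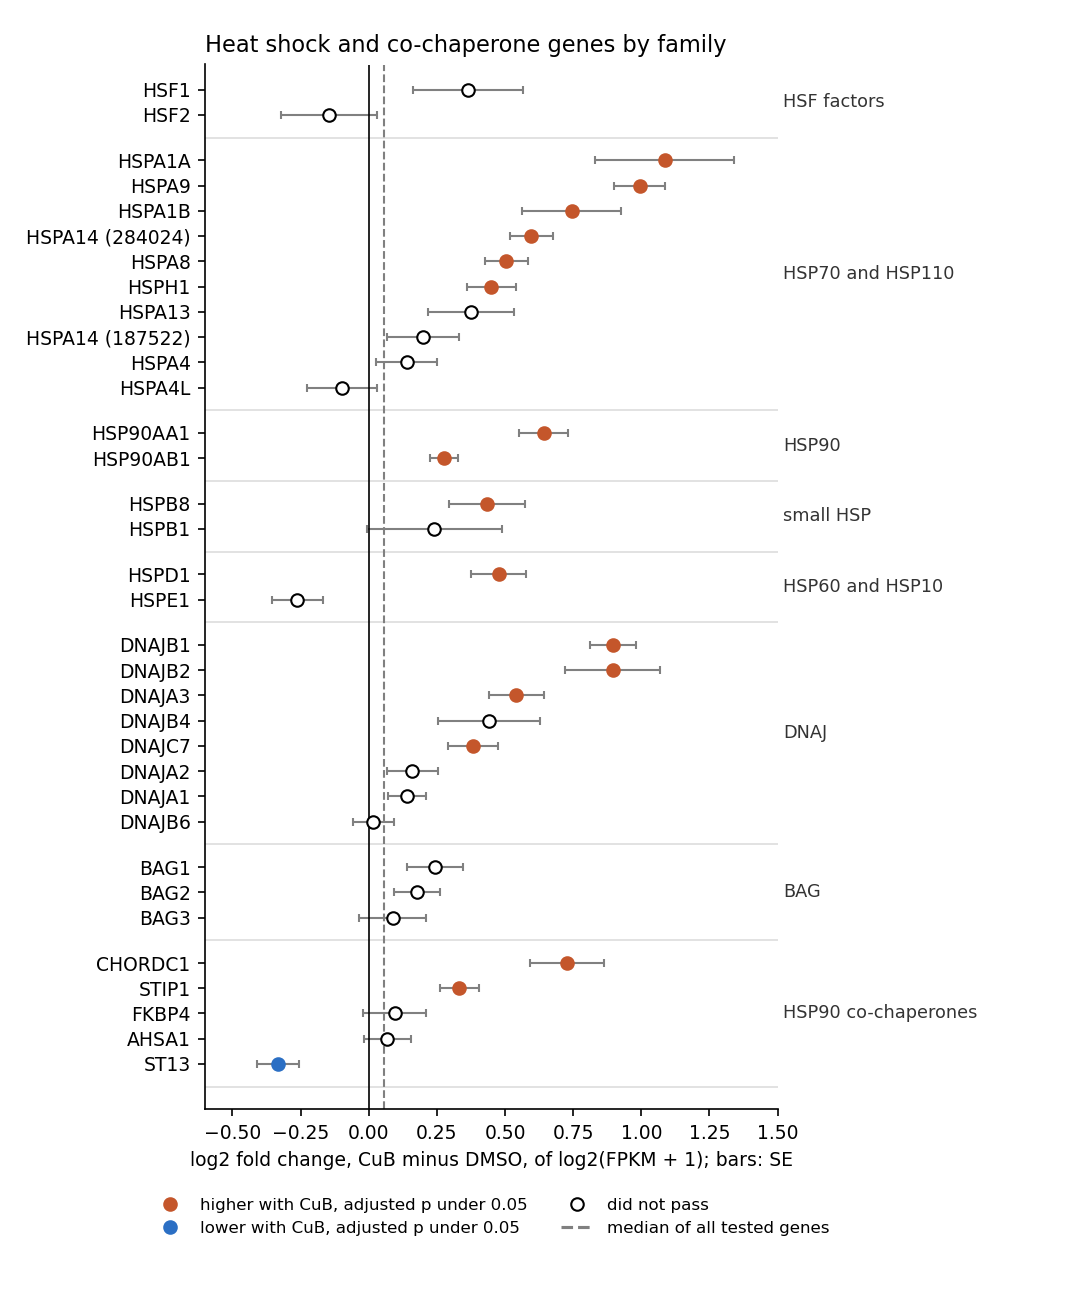
Change of each tested member, as log2(FPKM + 1) with CuB minus DMSO on the horizontal axis, with bars for the standard error and members grouped by family; the dashed line marks the median of all tested genes at 0.05. The numbers beside HSPA14 are the ends of its identifiers, and the only member that passed on the left side is ST13.

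The total was 14845976 to 15797757 fragments per library with DMSO and 15502971 to 16137093 with CuB, and 154377 or more of them fell on members in every library. The library size implied by the deposited FPKM values was 1.03 to 1.04 times the fragment total with DMSO and 0.914 to 0.927 times with CuB. Equal fragment totals therefore lower every CuB value: the median change of all tested genes shifted by -0.139, 15.2% of all tested genes were then higher and 23.6% lower with CuB, and 12 members were higher and 2 lower, with a median change of 0.19. Libraries also differed within groups by base composition. Across genes, the rank correlation of a library's deviation from its group mean with GC content was -0.542, 0.774 and -0.703 for DMSO replicates 1 to 3 and -0.667, 0.262 and 0.648 for the CuB replicates, so GC-rich members read high in DMSO replicate 2 and CuB replicate 3. Among 11 marker genes of immune, epithelial, endothelial and fibroblast cells the summed level was 1.55 to 1.82 FPKM with DMSO and 0.649 to 1.13 FPKM with CuB, and none reached the mean of 1 FPKM needed for a test. SOX10, a neural crest factor kept by melanoma cells, had 162 to 256 FPKM in the 6 libraries, while the pigment genes PMEL, TYR and DCT were at or near 0 in both groups. Of the 4 tested melanocyte and neural crest markers, NGFR rose from 3.03 ± 0.587 to 17.3 ± 3.82 FPKM (change 2.17, adjusted p = 0.000193) and S100B fell from 26.4 ± 1.61 to 6.64 ± 0.161 FPKM (change -1.84, adjusted p = 1.27e-05).

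RefSeq promoter windows (GRCh38.p14, 250 bases before to 50 after an annotated start) were matched for 34 of the 38 names and searched for heat shock elements. The shortest form searched has 2 units, GAANNTTC or TTCNNGAA, each of which reads the same way on both strands. It was present in 20 of the 34 members (58.8%), in 16.2% of all 27305 gene symbols and in 13.5% of all 35116 windows. Members and symbols were counted as holding it where any of their windows did. Runs of 3 or more units, which contain the shorter form, were present in 8 members (23.5%), in 0.608% of all symbols and in 0.49% of all windows. The longest runs are shown because runs of this length are rare among all windows, with those of HSPA1A, HSPA1B and DNAJB1, 3 of the members with the largest changes, for comparison. Further runs of 2 units, among them 1 near a second start of DNAJB1, are not printed. HSPA9 and DNAJB2, which changed more than HSPA1B, are also not shown. The 2-unit form of HSPA9 lies across its start (-4 to 4), and the window of DNAJB2 holds none. Each run shown is printed 5′ to 3′ on the strand of its gene with up to 20 bases on either side, and capitals mark the units. A match is a description of the letters and not a bound site.
CHORDC1, 5 units, chr11:90223067-90223129, minus strand: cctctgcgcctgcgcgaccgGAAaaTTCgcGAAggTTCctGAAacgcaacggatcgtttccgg
HSPD1, 4 units, chr2:197500048-197500090, minus strand: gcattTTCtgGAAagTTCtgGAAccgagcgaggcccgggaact
HSPA8, upstream run of 3 units, chr11:123062334-123062386, minus strand: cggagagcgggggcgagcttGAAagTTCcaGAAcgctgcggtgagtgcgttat
HSPA8, downstream run of 3 units, chr11:123062159-123062211, minus strand: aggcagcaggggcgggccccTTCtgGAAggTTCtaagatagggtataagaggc
HSP90AA1, 3 units, chr14:102087100-102087152, minus strand: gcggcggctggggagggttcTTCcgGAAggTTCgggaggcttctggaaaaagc
HSP90AB1, upstream run of 3 units, chr6:44247758-44247810, plus strand: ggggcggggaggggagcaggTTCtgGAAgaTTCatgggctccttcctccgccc
HSP90AB1, downstream run of 3 units, chr6:44247811-44247863, plus strand: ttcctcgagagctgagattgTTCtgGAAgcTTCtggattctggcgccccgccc
HSPA6, 3 units, chr1:161524446-161524498, plus strand: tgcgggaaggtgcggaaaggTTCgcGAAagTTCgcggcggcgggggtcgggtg
DNAJA1, 3 units, chr9:33025256-33025308, plus strand: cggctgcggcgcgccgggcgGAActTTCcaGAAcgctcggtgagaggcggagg
DNAJB6, 3 units, chr7:157336853-157336905, plus strand: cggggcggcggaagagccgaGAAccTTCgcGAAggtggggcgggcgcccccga
HSPA1A, 2 units, chr6:31815417-31815464, plus strand: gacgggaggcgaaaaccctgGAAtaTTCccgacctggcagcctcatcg
HSPA1B, 2 units, chr6:31827613-31827660, plus strand: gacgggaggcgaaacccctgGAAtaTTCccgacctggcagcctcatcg
DNAJB1, first run of 2 units, chr19:14518447-14518494, minus strand: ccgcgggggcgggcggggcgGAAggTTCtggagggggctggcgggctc
DNAJB1, second run of 2 units, chr19:14518417-14518464, minus strand: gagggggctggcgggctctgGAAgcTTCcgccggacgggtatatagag

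Of the 7 tested members with a run of 3 or more units, 5 rose (HSPA8, HSP90AA1, HSP90AB1, HSPD1 and CHORDC1), while DNAJA1 and DNAJB6 did not pass. Of the 22 tested members whose windows hold no such run, 10 rose. The 2-unit form was absent from the windows of 4 members that rose, HSPH1, DNAJA3, DNAJB2 and DNAJC7. Over all tested genes with a window, 14 of 42 with a run of 3 or more units were higher with CuB (33.3%), and 2254 of 8972 without one (25.1%). The 42 include the 7 members above, 5 of which rose, so this share is not independent of the members. It does not give the share among the other genes with such a run, and a link between run and change was not tested. The run in HSPD1 spans 197500068 to 197500085 on chromosome 2, upstream of 1 of the 2 annotated RefSeq starts of HSPD1 (197499840) and downstream of the other (197500274), and it ends 43 bases before the window of its divergent neighbour HSPE1 begins. The 2-unit form of HSPA1A is also inside the window of its divergent neighbour HSPA1L, which holds the same bases on the other strand.

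**Figure D2:**
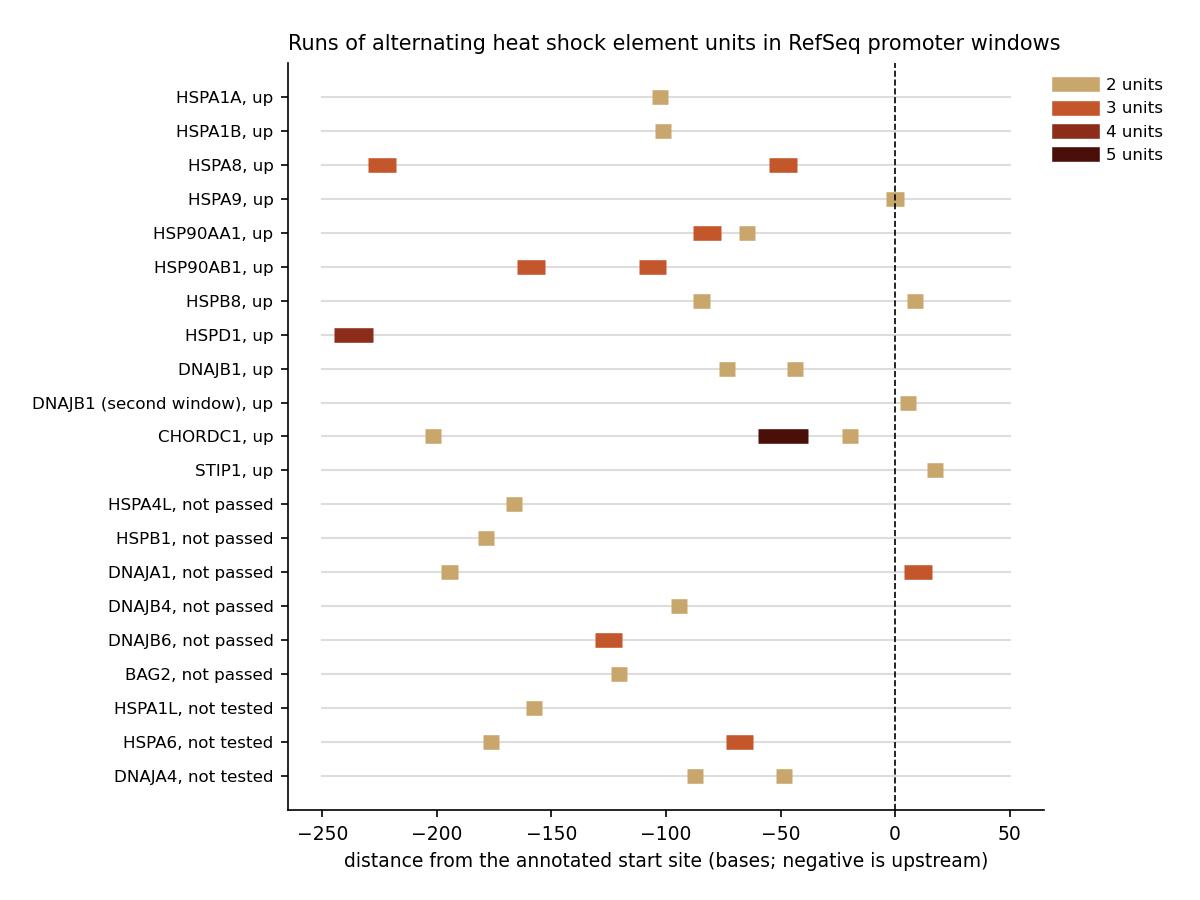
Position of each run of heat shock element units in the matched RefSeq windows, in bases from the annotated start site on the horizontal axis with negative values upstream; each row is a member and colour gives the number of units. CHORDC1 holds the run with the most units, 5, and most runs lie upstream of the start.

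Neither heat shock factor passed the test. HSF1, the main stress-activated factor (ENSG00000185122), had 14.3, 20.9 and 12.5 FPKM in DMSO replicates 1 to 3 and 16.5, 21.8 and 23.2 FPKM in the CuB replicates. DMSO replicate 2 lay among the CuB libraries, so the groups overlapped. The change was 0.36 (SE 0.203, limma adjusted p = 0.197). The transcript is rich in GC (64.7%), and with the dependence of each library on GC removed the change was 0.33 with an adjusted p of 0.00222. Without DMSO replicate 2 the adjusted p was 0.0265. HSF2 (ENSG00000025156, chromosome 6, 122399546 to 122433119), a factor active mainly in development and differentiation, had 8.51, 6.67 and 9.25 FPKM with DMSO and 9.25, 6.92 and 5.79 FPKM with CuB. The libraries of HSF2 were mixed between groups (change -0.15, adjusted p = 0.545). At an unadjusted p under 0.05, and with voom on the recovered fragments, the number of factors called was also 0 of 2.

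The HSP70 and HSP110 family had 6 of 10 tested rows higher with CuB (60.0%, against 22.9% of all tested genes) and 4 that did not pass. HSPA1A (ENSG00000204389, chromosome 6, 31815464 to 31817946), a strongly heat-inducible HSP70, had 3.02, 4.67 and 3.20 FPKM with DMSO and 5.66, 9.64 and 11.9 FPKM with CuB. All CuB libraries lay above all DMSO libraries, although CuB replicate 1 lay close to the highest of them. Its mean went from 3.63 ± 0.908 to 9.08 ± 3.18 FPKM, a ratio of 2.50 (change 1.09, SE 0.256, adjusted p = 0.0151). HSPA1B (ENSG00000204388, chromosome 6, 31827735 to 31830255), its neighbour, had 2.74, 3.29 and 3.10 FPKM with DMSO and 4.06, 6.67 and 6.98 FPKM with CuB. Its CuB libraries were likewise all higher (change 0.74, SE 0.181, adjusted p = 0.0173). The 2 open reading frames are 99.8% identical, with 4 differences in 1926 bases, so how the fragments were divided between the pair is uncertain. Over the transcripts the identity is lower, 89.4%. The promoter windows are 92.0% identical. The adjusted p of HSPA1A was 0.0542 without DMSO replicate 1, 0.0560 without CuB replicate 2 and 0.0503 with no filter on low levels. For HSPA1B the matching values were 0.0616, 0.0670 and 0.0537, and 0.0536 without CuB replicate 3.

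HSPA8 (ENSG00000109971, chromosome 11, 123057489 to 123063230), the constitutive cytosolic HSP70, had 197, 186 and 198 FPKM with DMSO and 255, 272 and 302 FPKM with CuB. These groups were well apart (change 0.51, SE 0.080, adjusted p = 0.00317). In FPKM, HSPA8 was about the level of HSPD1 and far above HSPA1A: the ratio of HSPA1A to HSPA8 was 0.0189 ± 0.00547 with DMSO and 0.0324 ± 0.00904 with CuB. HSPA9 (ENSG00000113013, chromosome 5, 138553756 to 138575724), the mitochondrial HSP70 called mortalin, had 56.6, 50.7 and 58.5 FPKM with DMSO and 121, 111 and 102 FPKM with CuB. Every CuB library was far above every DMSO library, with a ratio of means of 2.01 (change 0.99, SE 0.094, adjusted p = 0.000346). HSPH1 (ENSG00000120694, chromosome 13, 31134974 to 31162388), the HSP110 that exchanges nucleotide on HSP70, had 44.8, 38.9 and 45.4 FPKM with DMSO and 62.7, 58.1 and 56.4 FPKM with CuB. Its groups did not overlap (change 0.45, adjusted p = 0.00788), but the call was lost with quantile normalization (adjusted p = 0.120).

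HSPA14, a ribosome-associated HSP70, has a pair of rows that share 460 exon bases on chromosome 10. The row ENSG00000284024 (14838160 to 14847018) had 5.87, 5.97 and 6.30 FPKM with DMSO and 10.2, 9.26 and 9.51 FPKM with CuB, and rose by 0.60 (adjusted p = 0.00152). The row ENSG00000187522 (14838164 to 14871741) had 8.92, 7.97 and 11.4 FPKM with DMSO and 11.7, 10.3 and 10.5 FPKM with CuB, and its groups overlapped (change 0.20, adjusted p = 0.270). Because they share exons, which row holds the change is uncertain. HSPA13 had 16.1, 11.1 and 16.4 FPKM with DMSO and 21.0, 18.4 and 17.4 FPKM with CuB. Every CuB library of HSPA13 was higher, but the test did not pass (change 0.38, adjusted p = 0.103, and 0.000914 with GC removed). HSPA4, an HSP110 relative, had 74.6 ± 8.62 and 82.1 ± 7.96 FPKM, and its change of 0.14 turned to -0.03 with equal fragment totals, while with GC removed it passed as higher (0.16, adjusted p = 0.0251). HSPA4L, its testis-rich relative, had 1.89 ± 0.325 and 1.69 ± 0.236 FPKM.

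A further 3 HSP70 genes stayed below the mean of 1 FPKM and were not tested. HSPA6, an HSP70 that many cells make only under strong stress, had 0.357, 0.644 and 0.378 FPKM with DMSO and 0.0893, 0.0851 and 0.113 FPKM with CuB. Here every CuB library was lower, on 52 fragments with DMSO and 10 with CuB in all. On the FPKM scale the DMSO level was 4.83 times that with CuB, with an exact 95% interval of 2.43 to 10.7 that covers counting error only. When low genes were kept in the fit, HSPA6 fell by 0.41 (adjusted p = 0.0353). It is the 1 member with a run of 3 units in its window that was lower with CuB in every library. HSPA2, an HSP70 best known from sperm cells, had 211 fragments with DMSO and 136 with CuB. HSPA1L, also best known from testis, had 36 and 28. Their groups overlapped.

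**Figure D3:**
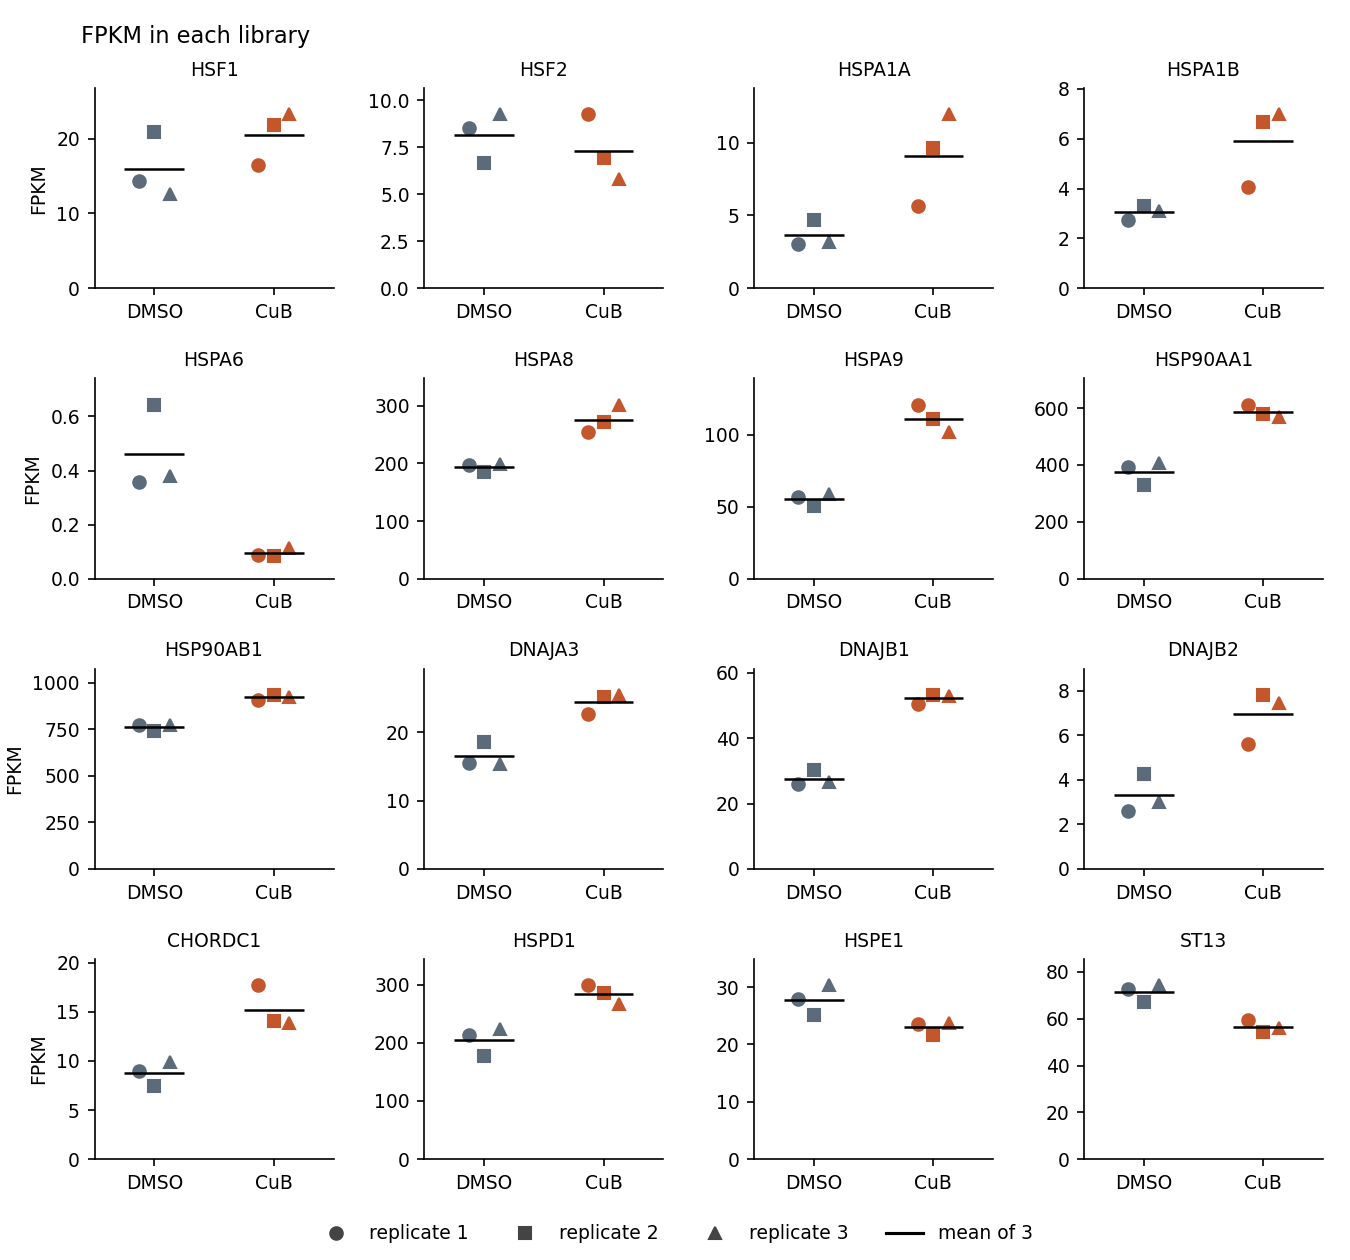
FPKM of 16 members in each of the 6 libraries (vertical axis from 0), DMSO on the left and CuB on the right of each panel; symbols give the replicate number and lines the mean of 3. HSPA9, DNAJB1 and HSP90AA1 separate clearly, HSF1 and HSF2 overlap, and HSPA6, HSPE1 and ST13 lie lower with CuB.

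Both cytosolic HSP90 genes rose. HSP90AA1, the more stress-inducible form (ENSG00000080824, chromosome 14, 102080738 to 102139699) had 393, 330 and 407 FPKM with DMSO and 612, 579 and 569 FPKM with CuB. The CuB libraries were all far above the DMSO libraries (change 0.64, SE 0.090, adjusted p = 0.0019). HSP90AB1 (ENSG00000096384, chromosome 6, 44246166 to 44253888), the constitutive form and the member with the highest level, had 773, 737 and 771 FPKM with DMSO and 905, 934 and 924 FPKM with CuB. Its groups were apart and tight (change 0.28, SE 0.052, adjusted p = 0.00612), but the call was lost with equal fragment totals (0.131), quantile normalization (0.504) and no filter (0.183). The ratio of HSP90AA1 to HSP90AB1 within a library does not depend on the library's scale. It was 0.495 ± 0.0417 with DMSO and 0.637 ± 0.0340 with CuB, and every CuB library was above every DMSO library. HSP90AB1 made up 32.1 ± 0.243% of the summed member FPKM with DMSO and 29.8 ± 0.460% with CuB. These ratios were not tested. An exact permutation test of 3 against 3 libraries cannot give a p below 0.1.

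The small heat shock proteins hold unfolded proteins without using ATP. HSPB1 (HSP27) had 75.6, 120 and 65.0 FPKM with DMSO and 80.3, 97.9 and 125 FPKM with CuB, with DMSO replicate 2 and CuB replicate 3 highest. Its transcript is 64.3% GC, and with GC removed its change went from 0.24 (adjusted p = 0.478) to 0.21 (adjusted p = 0.111). HSPB8, a partner of BAG3 in selective autophagy, had 0.592, 0.876 and 1.08 FPKM with DMSO and 1.33, 1.57 and 1.54 FPKM with CuB. All 3 CuB libraries were higher (change 0.43, adjusted p = 0.0459), on 115 fragments with DMSO in all. The call was lost in 11 of 19 alternatives, with adjusted p up to 0.140, among them the removal of any 1 library other than DMSO replicate 3.

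The mitochondrial chaperonin genes, which share a divergent promoter, had changes of opposite sign. HSPD1 (HSP60, ENSG00000144381, chromosome 2, 197486581 to 197516737) had 213, 178 and 224 FPKM with DMSO and 299, 286 and 267 FPKM with CuB. It was higher in every CuB library (change 0.48, adjusted p = 0.00987), with the call lost under quantile normalization (0.0899). HSPE1 (HSP10, ENSG00000115541, chromosome 2, 197499994 to 197503457), the lid of the HSP60 ring, had 27.9, 25.1 and 30.3 FPKM with DMSO and 23.5, 21.6 and 23.7 FPKM with CuB. It was lower in every CuB library without passing the test (change -0.26, adjusted p = 0.0626). It passed as lower with equal fragment totals (0.0112), with GC removed (0.0205) and without DMSO replicate 2 (0.0185). The within-library ratio of HSPD1 to HSPE1 was 7.35 ± 0.274 with DMSO and 12.4 ± 1.04 with CuB. The genes share 281 exon bases on opposite strands, 14.2% of the exon bases of HSPE1, and this kit does not mark strand, so fragments there cannot be assigned to 1 of them.

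Of the 8 tested DNAJ genes, 4 rose and 4 did not pass. DNAJB1 (HSP40, ENSG00000132002, chromosome 19, 14514770 to 14529770), the main inducible partner of HSP70, had 25.9, 30.4 and 26.7 FPKM with DMSO and 50.4, 53.3 and 53.0 FPKM with CuB. The groups were narrow and far apart, with a ratio of means of 1.89 (change 0.90, SE 0.085, adjusted p = 0.000359). Exons of TECR on the other strand cover 5.75% of its exon bases. DNAJB2 (ENSG00000135924, chromosome 2, 219279267 to 219286900), which delivers clients to the proteasome and is rich in neurons, had 2.62, 4.29 and 3.01 FPKM with DMSO and 5.61, 7.82 and 7.47 FPKM with CuB. Its means differed 2.11-fold without overlap (change 0.89, SE 0.174, adjusted p = 0.00721). DNAJA3 (ENSG00000103423, chromosome 16, 4425805 to 4456775), the mitochondrial partner of HSPA9, had 15.5, 18.6 and 15.4 FPKM with DMSO and 22.6, 25.1 and 25.5 FPKM with CuB. It was higher in all CuB libraries (change 0.54, adjusted p = 0.00617). DNAJC7, which binds both HSP70 and HSP90, had 11.8, 11.1 and 11.6 FPKM with DMSO and 17.1, 14.4 and 14.5 FPKM with CuB. It rose by 0.38 (adjusted p = 0.0163), with the call lost without DMSO replicate 1 (0.0511), with equal fragment totals (0.0806) and with quantile normalization (0.0915). Exons of CNP and NKIRAS2 on the other strand cover 4.28% and 5.16% of its exon bases.

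DNAJA1 and DNAJA2, general cytosolic partners of HSP70, were higher in every CuB library but did not pass. DNAJA1 had 80.3 ± 4.35 and 88.5 ± 0.642 FPKM (change 0.14, adjusted p = 0.154), and its sign turned with equal fragment totals (-0.02). DNAJA2 had 19.1 ± 1.54 and 21.4 ± 1.42 FPKM (change 0.16, adjusted p = 0.211, and 0.00988 with GC removed). DNAJB6, which holds back aggregation of polyglutamine proteins, was nearly level at 12.7 ± 0.496 and 12.9 ± 0.323 FPKM. DNAJB4 had 2.72, 2.10 and 2.83 FPKM with DMSO and 5.19, 3.68 and 2.81 FPKM with CuB. CuB replicate 3 lay inside the DMSO range (change 0.44, adjusted p = 0.105), and without it the adjusted p was 0.0408. With GC removed and all libraries kept it was 0.00528. DNAJA4 and DNAJB5 were too low to test, with 22 and 194 fragments with DMSO and 27 and 231 with CuB.

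No BAG gene passed (0 of 3 by limma and by voom, 1 of 3 at an unadjusted p under 0.05). BAG3 (ENSG00000151929, chromosome 10, 119651370 to 119677819), a stress-inducible exchange factor that steers clients to autophagy, had 49.4, 59.5 and 44.3 FPKM with DMSO and 50.3, 53.2 and 58.6 FPKM with CuB. The groups overlapped fully (change 0.09, adjusted p = 0.603), and the sign turned with equal fragment totals (-0.08). BAG1, a partner of HSP70 at the proteasome, had 6.27, 7.91 and 6.86 FPKM with DMSO and 8.39, 7.99 and 9.01 FPKM with CuB. These did not overlap (change 0.24, adjusted p = 0.1), and without DMSO replicate 2 the adjusted p was 0.0275. BAG2, an inhibitor of the ubiquitin ligase CHIP, had 3.86 ± 0.243 and 4.50 ± 0.167 FPKM (change 0.18, adjusted p = 0.140). Exons of RAB23 on the other strand cover 42.7% of its exon bases, so its level is uncertain.

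Among 5 co-chaperones of HSP90, 2 rose and 1 fell. CHORDC1 (ENSG00000110172, chromosome 11, 90201160 to 90223364), whose protein morgana binds HSP90 and whose window holds the 5-unit run, had 8.99, 7.43 and 9.91 FPKM with DMSO and 17.7, 14.1 and 13.8 FPKM with CuB. All CuB libraries were higher, with a ratio of means of 1.73 (change 0.73, SE 0.135, adjusted p = 0.00605). STIP1 (HOP, ENSG00000168439, chromosome 11, 64185272 to 64204543) had 82.3, 85.9 and 79.5 FPKM with DMSO and 98.5, 105 and 109 FPKM with CuB. The groups did not overlap (change 0.33, adjusted p = 0.0113). The call for STIP1 was lost without DMSO replicate 1 (0.0522), without CuB replicate 2 (0.0569), with equal fragment totals (0.115) and with quantile normalization (0.406).

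ST13 (HIP, ENSG00000100380, chromosome 22, 40824535 to 40857022), which holds HSP70 in its ADP-bound state, was the only tested member to fall. It had 72.7, 67.3 and 74.4 FPKM with DMSO and 59.3, 54.2 and 56.1 FPKM with CuB, so that every CuB library was lower. It fell by 0.33 (SE 0.076, adjusted p = 0.0134), and the adjusted p was 0.0642 without DMSO replicate 1, 0.0512 without DMSO replicate 3 and 0.0704 without CuB replicate 2. AHSA1, the activator of the HSP90 ATPase, had 42.2 ± 2.28 and 44.3 ± 3.31 FPKM. FKBP4, a partner of HSP90 in steroid receptor complexes, had 39.5 ± 4.11 and 42.3 ± 4.76 FPKM. The groups of AHSA1 and FKBP4 overlapped, and their changes of 0.07 and 0.09 turned to -0.09 and -0.07 with equal fragment totals.

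**Figure D4:**
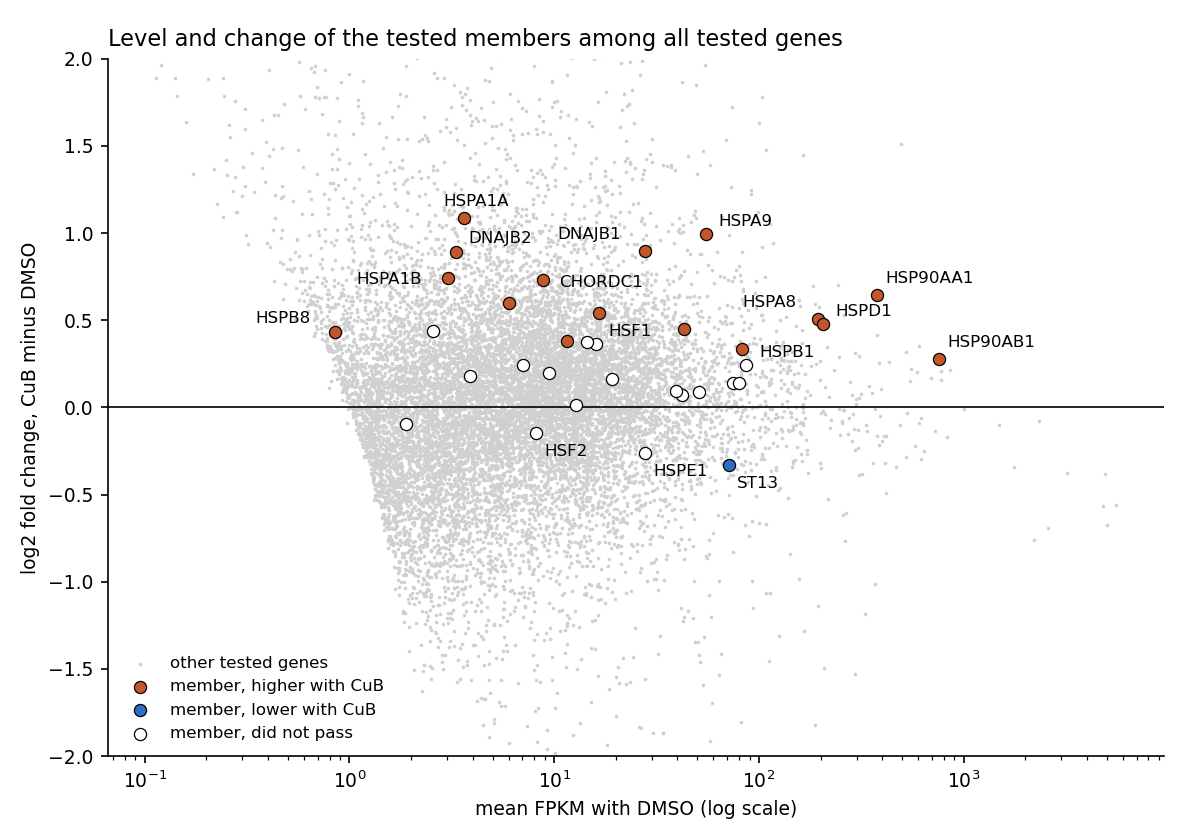
Change (vertical axis, log2(FPKM + 1) with CuB minus DMSO) against mean FPKM with DMSO (horizontal axis, log scale) for the tested members over all tested genes in grey, without genes that changed by more than 2 or had under 0.1 FPKM with DMSO. Members that rose are found from HSPB8 at 0.848 FPKM to HSP90AB1 at 761 FPKM.

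Of the 17 rows called, 8 kept the same call in each of the 20 alternatives tried: HSPA8, HSPA9, HSPA14 (ENSG00000284024), HSP90AA1, DNAJA3, DNAJB1, DNAJB2 and CHORDC1. Under all 4 other scalings of the libraries 11 rows were called. By role these 8 are 3 HSP70 genes, 1 HSP90, 3 J-domain partners and 1 HSP90 co-chaperone. HSPA9 and DNAJA3, both mitochondrial, are among them. The other HSPA14 row, ENSG00000187522, which shares exons with the row counted here, did not pass in the main fit or in any of the 20 alternatives. Whether HSPA14 belongs among the 8 as a gene is therefore uncertain.

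**Figure D5:**
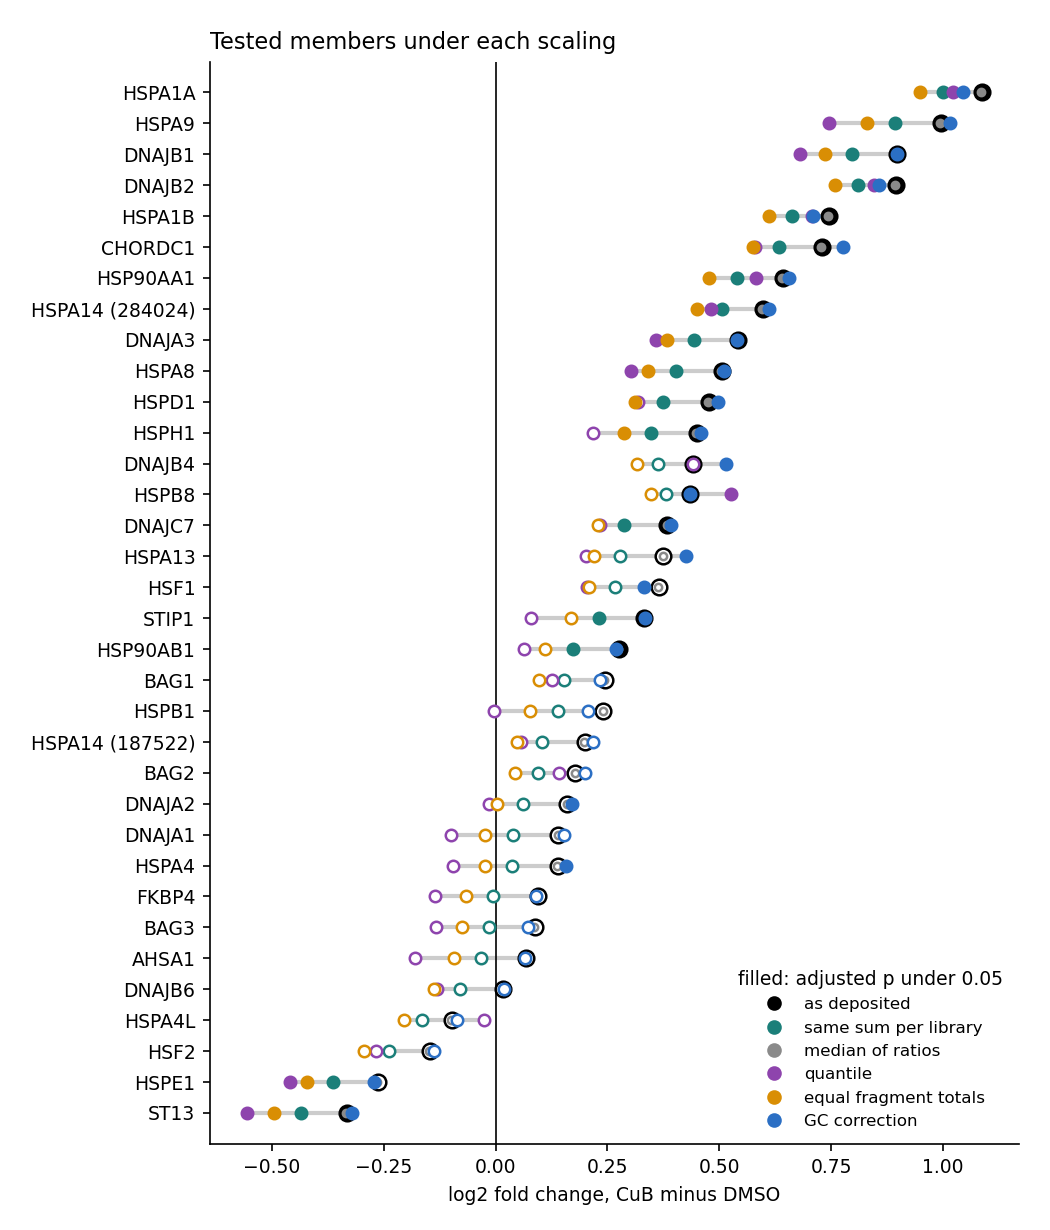
Change of each tested member (horizontal axis, log2 scale, CuB minus DMSO) under 6 scalings of the libraries, with filled points for an adjusted p under 0.05. Equal fragment totals and quantile normalization move most members to the left. HSPA1A, HSPA1B, HSPA9, DNAJB1, DNAJB2 and CHORDC1 stay right of 0.5 under all 6.

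Genes that work beside the members were listed by function. Of the 8 genes of the CCT chaperonin, which folds actin and tubulin, 7 rose (87.5%), where 22.9% of all tested genes did. Their changes were up to 0.37, and the least stable of these calls held in 9 of the 20 alternatives. CCT4 (0.37, adjusted p = 0.0126), CCT6A (0.34, 0.0112) and CCT2 (0.34, 0.0165) had 3 of the 4 largest changes. Without CuB replicate 2 the adjusted p was 0.0558 for CCT6A and 0.0579 for CCT2. CCT5 went from 89.2 ± 1.76 to 115 ± 1.56 FPKM (change 0.37, adjusted p = 0.00395), with the call lost under quantile normalization (0.242). With equal fragment totals 1 of the 8 was called, where 15.2% of all tested genes were higher. Of 6 tested prefoldin genes, whose product passes clients to CCT, PFDN2 rose by 0.47 (adjusted p = 0.0265) and PFDN5 fell by 0.33 (adjusted p = 0.0235), and each call was lost when DMSO replicate 1 (0.0914 and 0.0868), DMSO replicate 3 (0.0801 and 0.0533), CuB replicate 2 (0.0826 and 0.107) or CuB replicate 3 (0.0808 and 0.0771) was left out. Of 9 further HSP90 co-chaperones 0 passed by limma, 3 had an unadjusted p under 0.05, and voom called 1. PTGES3 (p23) was that gene (change 0.33, adjusted p = 0.0663 by limma and 0.0420 by voom). CDC37, which brings kinases to HSP90, had a change of 0.21 (adjusted p = 0.374, and 0.0440 without DMSO replicate 2). HSPB11, listed only by its symbol with the further small heat shock genes, had a change of -0.09 (adjusted p = 0.549). Of 27 further DNAJ genes 5 rose (18.5%) and 4 fell (14.8%), near the shares of all tested genes (22.9% and 15.6%). DNAJC2, which sits on ribosomes with HSPA14, went from 8.99 ± 0.855 to 15.3 ± 2.05 FPKM (change 0.70, adjusted p = 0.00386), and DNAJC22 from 5.71 ± 0.296 to 3.07 ± 0.257 FPKM (change -0.72, adjusted p = 0.0012). DNAJC25 rose by 0.63 (adjusted p = 0.00889). DNAJC12 fell from 5.20 ± 1.55 to 2.63 ± 0.411 FPKM (change -0.75, adjusted p = 0.0199), with the call lost without DMSO replicate 1 (0.0592), CuB replicate 2 (0.0604) or CuB replicate 3 (0.0624).

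Of 7 further nucleotide exchange factors and BAG genes 3 rose (42.9%), where 22.9% of all tested genes did. Among the 3, GRPEL2, which exchanges nucleotide on HSPA9, went from 19.1 ± 2.21 to 41.3 ± 7.26 FPKM (change 1.07, SE 0.145, adjusted p = 0.00165). GRPEL1, its more general relative, rose by 0.24 (adjusted p = 0.0338), and HSPBP1, which acts on cytosolic HSP70, by 0.61 (adjusted p = 0.0416). Both of these calls were lost when DMSO replicate 1 (0.111 and 0.124), DMSO replicate 3 (0.0928 and 0.115), CuB replicate 2 (0.133 and 0.111) or CuB replicate 3 (0.116 and 0.118) was left out, and with equal fragment totals (0.408 and 0.109). In the endoplasmic reticulum, the HSP70 gene HSPA5 (BiP) went from 187 ± 2.19 to 283 ± 4.16 FPKM (change 0.59, adjusted p = 0.00036). The HSP90 gene of that compartment, HSP90B1, had a change of -0.16 (adjusted p = 0.277, and 0.0438 without DMSO replicate 2).

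Of 7 tested genes listed here as further targets of HSF1, 5 rose (71.4%), where 22.9% of all tested genes did. With equal fragment totals 4 of the 7 were higher, where 15.2% of all tested genes were. The list was written with earlier results of these data known. ZFAND2A, a proteasome-binding protein made under proteotoxic stress, went from 5.67 ± 1.05 to 14.1 ± 0.0262 FPKM (change 1.19, SE 0.121, adjusted p = 0.000491). DEDD2 went from 5.07 ± 1.18 to 11.4 ± 2.02 FPKM (change 1.04, adjusted p = 0.00363). CLU, an extracellular chaperone, rose from 0.548 ± 0.0618 to 1.49 ± 0.0683 FPKM (change 0.68, adjusted p = 0.00395). Of 3 tested regulators of HSF1, IER5, whose product binds HSF1 and keeps it active, went from 10.1 ± 3.64 to 29.9 ± 5.69 FPKM, a ratio of 2.95 (adjusted p = 0.00311). HSBP1, a small protein that binds the trimer of HSF1, fell by 0.39 (adjusted p = 0.0138), and its call was lost without DMSO replicate 1 (0.0502) and without CuB replicate 2 (0.0679). In bulk libraries a change in a share of the cells and a change in RNA per cell cannot be told apart.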

How the data were processed

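RNA of 6 A375 libraries, 3 per group, was sequenced from a kit that does not mark strand. The authors deposited 1 table of FPKM values. Per the submitters' processing notes the build is GRCh38; no aligner or counter is named in the sources used here. The coordinates of all 58735 genes match GENCODE release 29. FPKM times gene length moves in whole steps of 1 fragment (within 0.01 fragments for 100% of values), which gave the fragments per gene and the totals quoted. Groups came from the sample labels, and gene symbols from the table. CuB was compared with DMSO by limma 3.58.1 with an intensity trend in R 4.3.3, on log2(FPKM + 1), over 13273 genes (mean over the 6 libraries of 1 FPKM or more), with Benjamini-Hochberg adjustment over all of them and a threshold of 0.05. The fit was tested on simulated data that held no GC dependence and no difference in library scaling between groups, so that test does not bear on either. The main fit did not use a count model because the deposited unit is FPKM, and voom on the recovered fragments was an alternative. Runs of 2 or more heat shock element units were searched in RefSeq windows on both strands. HSF1, HSPA14, FKBP4 and ST13 had no window. Python 3.11.15 with matplotlib 3.10.9 drew the figures.

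All members are reported: values per library where a change passed or was at least 0.5, and for members of special role, with means and SD otherwise; in other lists up to 4 passing genes with the largest changes are named, or the 2 with the highest levels where fewer than 2 passed, except 1 gene that is not reported here. The members and lists were chosen with earlier results of these data known. The alternatives were other pseudocounts, filters, scalings and test settings, voom on the recovered fragments, removal of the dependence on GC content, the replicate number as a block, and leaving out each library.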

Additional observations from a re-analysis of the deposited data

How the results depend on the processing

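Of 675 values of members under the 20 alternatives, 603 kept direction and side of the threshold, 33 lost the call, 19 gained one and 20 changed sign without being called in either setting. The sign changes under quantile normalization were HSPA4 (-0.096), HSPB1 (-0.005), DNAJA1 (-0.099), DNAJA2 (-0.015), DNAJB6 (-0.130), BAG3 (-0.134), AHSA1 (-0.179), FKBP4 (-0.136), and outside the members CDC37 (-0.037). With equal fragment totals they were HSPA4 (-0.025), DNAJA1 (-0.024), DNAJB6 (-0.137), BAG3 (-0.075), AHSA1 (-0.093) and FKBP4 (-0.067), with equal sums of FPKM DNAJB6 (-0.079), BAG3 (-0.014), AHSA1 (-0.032) and FKBP4 (-0.006), and without 1 library DNAJB6 (-0.002 to 0.046, lowest without DMSO replicate 1) and BAG3 (-0.008 to 0.201, lowest without DMSO replicate 3). The cause was not tested. The members' median of 0.348 became 0.248 with equal sums of FPKM, 0.172 with quantile normalization and 0.188 with equal fragment totals, and 0.287 to 0.352 without 1 library.

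Members called, 17, ranged without 1 library from 11 (without DMSO replicate 1) to 19, members higher from 11 to 17 and members lower from 0 to 2. GC correction, with or without the block, called 23 members, 21 of them higher. Lower members were 2 with equal sums, quantile normalization, equal totals, GC correction and GC correction with the replicate block. Genes called over the whole table, 5118, ranged without 1 library from 3262 (without CuB replicate 2) to 5755, higher from 1965 to 3443 and lower from 1297 to 2312. A minimum mean of 5 FPKM, which tests fewer genes, gave 3250 called and 985 lower. Equal totals gave 2022 higher and 3128 lower, and GC correction 7645 called, 4527 higher and 3118 lower. Deviations of same-numbered libraries correlated at 0.269, 0.118 and -0.357. Because these deviations also followed GC content, the correlations cannot decide whether replicate numbers pair the libraries. With the replicate number as a block, 16 members and 4443 genes were called. Depth limits HSPA6, HSPA1L and DNAJA4, with 10 to 52 fragments per group.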
